A study of Mus musculus with 12 samples.

Results

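Fatty acid oxidation was described here through 33 genes that carry a fatty acid from its uptake and activation, through the carnitine shuttle, to mitochondrial and peroxisomal beta-oxidation. They were chosen by symbol, with earlier results of these data known. All 33 were found among the 30130 genes of the table and passed the filter on low values. RNA was measured by bulk sequencing of whole tissue in 12 libraries. The 7 chronic proximal thoracic aortic aneurysm (cPTAA) libraries, numbered 2, 3, 4, 6, 7, 9 and 12, came from aortas treated with elastase around the vessel, in mice that also received BAPN, an inhibitor of lysyl oxidases. The 5 sham libraries, numbered 1, 5, 8, 10 and 11, came from proximal thoracic aortas of mice with sham surgery and normal water. All mice were male and of the strain the labels spell C56BL/6J. The sources used here give no genotype, age or time since surgery. Elastase and BAPN were never given apart, so their effects cannot be told apart here.

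In a cell, long-chain fatty acids are bound to coenzyme A, passed into the mitochondrion as carnitine esters, and shortened there by a repeated cycle of dehydrogenation, hydration, dehydrogenation and thiolysis that feeds the respiratory chain and the citric acid cycle. Peroxisomes shorten very long-chain, branched and dicarboxylic fatty acids with enzymes of their own. The pathway is most active in heart, oxidative muscle, liver and brown adipose tissue, and the fat that surrounds the thoracic aorta of the mouse resembles brown adipose tissue.

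The libraries held 14.1 to 17.5 M reads, on average 16.2 ± 0.879 M for the 7 cPTAA libraries and 15.7 ± 1.20 M for the 5 sham libraries (SD). Smooth muscle markers, which check the labelled tissue, were present in every library, with summed values of 67723 to 265923 in cPTAA and 214854 to 295515 in sham. 2 libraries stood near the other group. The library cPTAA 9 was the highest of its group for 29 of the 33 genes, and for the median gene it was 2.69 times the median of the other 6 cPTAA libraries. The library sham 8 was the lowest of its group for 29 of the 33 genes. Heart muscle markers were high in cPTAA 9, 6 and 7, with summed values of 186375, 27213 and 31573 over 14 genes, against 2033 to 8109 in sham. Results that rest on these libraries are given with and without them.

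The oxidation genes were lower in cPTAA nearly throughout. Of 33 genes, 28 fell, 0 rose and 5 did not pass (Fabp3, Cpt1a, Eci2, Acox3 and Hacl1), by limma across all genes with an adjusted p threshold of 0.05. The share of all 21415 tested genes called lower was 11.1%, and 12.9% were called higher. The median log2 fold change, cPTAA minus sham throughout, was -1.72 over the 33 genes and -0.05 over all tested genes. All 33 estimates were negative, edgeR and DESeq2 each called 27 lower and 0 higher, and 25 genes both passed and were at least 2-fold lower. In bulk tissue, fewer cells of a type and less RNA per cell cannot be told apart. Without cPTAA 9, 30 genes fell and the median was -1.98.

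**Figure D1:**
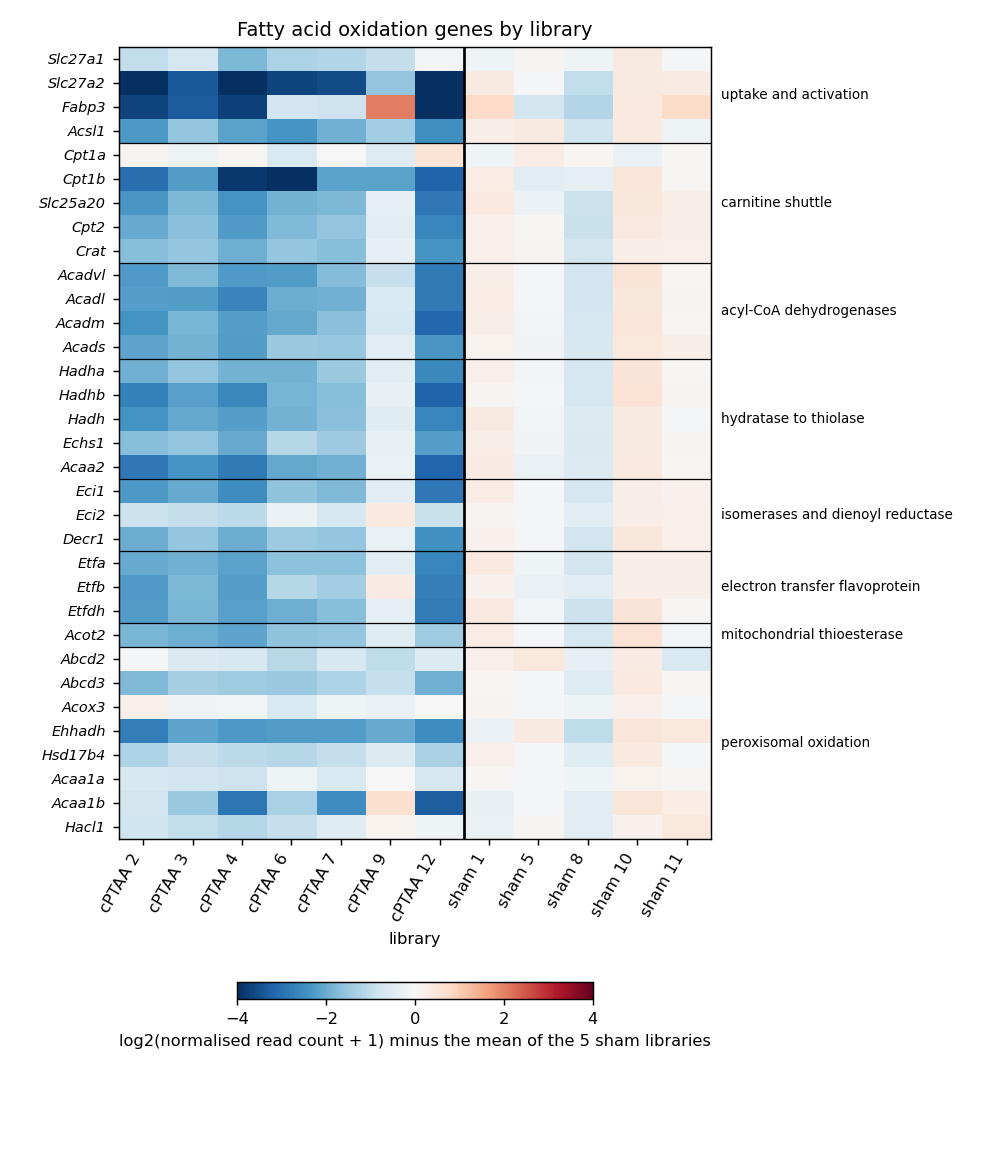
Difference of log2(normalised read count + 1) from the mean of the 5 sham libraries, for 33 genes (rows, grouped by step) in 7 cPTAA libraries (left) and 5 sham libraries (right), with colours that end at -4 and 4. Most genes are blue (lower) in 6 cPTAA libraries and pale in cPTAA 9, while Cpt1a and Acox3 are pale in all libraries.

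The values overlapped between the groups for most genes, and mainly through cPTAA 9 and sham 8. All 7 cPTAA libraries lay below all 5 sham libraries for 7 of 33 genes (Slc27a2, Acsl1, Cpt1b, Acadvl, Abcd3, Ehhadh and Hsd17b4), where 4.95% of all tested genes did so. Without cPTAA 9 the number was 26, and without sham 8 it was 22. These 2 libraries were each the extreme of their group for 29 of the 33 genes, so a higher number follows from leaving them out. The share of all tested genes was not computed with libraries left out, where smaller groups separate more readily. For 15 genes the whole overlap was that cPTAA 9 exceeded sham 8. The mean of log2(value + 1) over the 33 genes was lowest in cPTAA 12, at 9.48, and reached 11.24 in cPTAA 9. In sham it was 11.10 in sham 8 and reached 12.07 in sham 10.

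Markers of brown adipocytes moved with the oxidation genes. Of 16 markers 13 fell, 0 rose, and their median log2 fold change was -2.23. Their summed value was 5449 to 61864 in cPTAA and 47368 to 132955 in sham. Ucp1, the uncoupling protein of brown fat, was at 105 in cPTAA 12, at 8070 in the median cPTAA library and at 28872 in cPTAA 9. In sham it was at 53221, 33854, 16682, 63200 and 61323 in libraries 1, 5, 8, 10 and 11. The 2 groups overlapped in Ucp1 only through cPTAA 9 and sham 8. Zic1, a transcription factor of classical brown fat, was at or near 0 in all libraries, with values of 0 to 4.83 in cPTAA and 0 to 4.22 in sham. Cox6a2, also among the 16, was at 660, 552 and 5288 in cPTAA 6, 7 and 9, the cPTAA libraries with high heart muscle markers. It was at 6.90 to 19.8 in the other cPTAA libraries and at 12.8 to 150 in sham. White and general adipocyte markers also fell in 10 of 14 cases, with a median log2 fold change of -1.30. Heart muscle markers passed in 0 of 14 cases by limma, where 2 were higher and 1 lower at an unadjusted p under 0.05. Of these 14, edgeR called 1 higher (Tnnt2, the cardiac troponin T) and 0 lower, and DESeq2 called 5 higher and 1 lower.

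A second fit carried a brown adipocyte score as a covariate, and in it 6 of the 33 genes were called lower and 0 higher. The 6 were Slc27a1, Slc27a2, Acsl1, Acadvl, Abcd3 and Ehhadh. In that fit the shares of all tested genes called were 3.67% lower and 5.61% higher, and the median log2 fold change of the 33 genes was -0.55. The estimate was negative for 29 of 33 genes. The score, an average of log2(value + 1) across the 16 markers, was at 8.73 ± 0.959 in cPTAA (SD, n = 7) and 10.57 ± 0.456 in sham (SD, n = 5). It includes Cox6a2, which was highest in the cPTAA libraries with high heart muscle markers, and a score without Cox6a2 was not tried. Across all tested genes the median SE was 0.428 in the fit with the score and 0.302 in the fit on group alone.

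**Figure D2:**
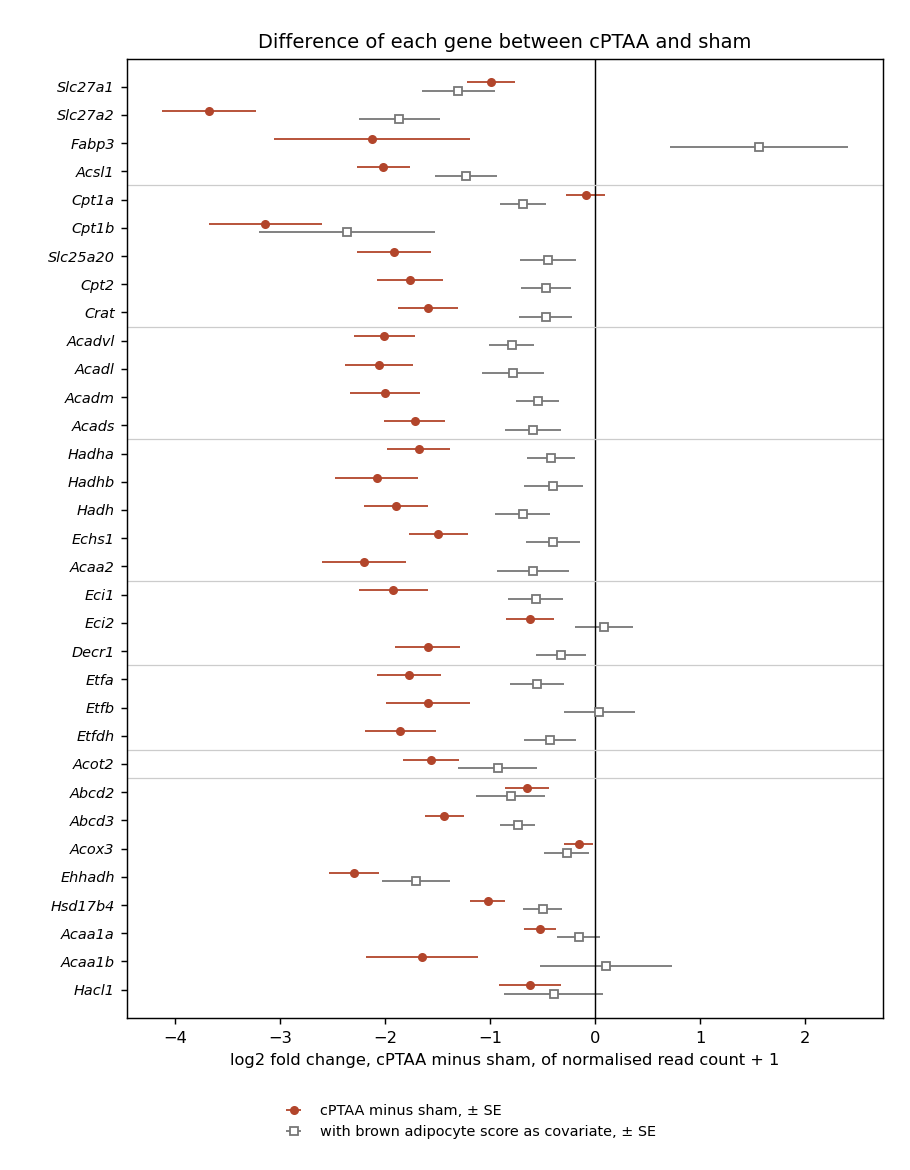
Log2 fold change (cPTAA minus sham, on normalised read count + 1) with its SE for each of the 33 genes, from the fit on group alone (filled circles) and from the fit that adds the brown adipocyte score (open squares). Group alone gives -3.68 for Slc27a2 and -0.09 for Cpt1a, and with the covariate most estimates lie closer to 0 while Fabp3 lies at 1.56.

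Promoter sequence was examined because the genes moved together. RefSeq windows of 300 bases, from 250 bases before to 50 after each start on GRCm38.p6, matched 27 of the 33 genes with 31 windows. The nuclear receptor half-site AGGTCA, read on both strands, was in 5 of 31 windows (16.1%) and in 16.3% of the 32817 windows of all genes. The longer half-site AAGGTCA, which contains the first, was in 2 windows (6.45%, and 4.72% of all). The GC box GGGCGG was in 21 windows (67.7%, and 35.6% of all), the CCAAT box in 14 (45.2%, and 37.4% of all), the E-box CACGTG in 1 (3.23%, and 7.15% of all) and TGACGTCA in 0 (1.79% of all). Mean GC content was 60.5% over the windows of the 33 genes and 53.8% over all windows. These are letter matches only.

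Windows are shown for Slc27a2 (chr2:126552774-126553073, plus strand), Acadm (chr3:153944594-153944893, minus strand), Hadhb (chr5:30155003-30155302, plus strand), Ehhadh (chr16:21787785-21788084, minus strand) and Cpt1a (chr19:3323051-3323350, plus strand). The 5 were chosen after their values were seen, as the member with the largest fall, the 2 that hold AAGGTCA (Slc27a2 is one), the shared promoter region of a subunit pair, the smallest p, and a member that did not pass. Each is written in the direction of transcription, with capitals for the 6-base nuclear receptor half-site, the GC box and the CCAAT box on either strand.
Slc27a2: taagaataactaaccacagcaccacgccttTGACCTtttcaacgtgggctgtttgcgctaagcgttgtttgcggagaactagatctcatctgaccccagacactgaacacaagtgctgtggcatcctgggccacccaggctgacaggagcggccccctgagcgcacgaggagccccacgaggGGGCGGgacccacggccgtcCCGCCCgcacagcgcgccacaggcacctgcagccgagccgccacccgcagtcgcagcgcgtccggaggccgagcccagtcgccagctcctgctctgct
Acadm: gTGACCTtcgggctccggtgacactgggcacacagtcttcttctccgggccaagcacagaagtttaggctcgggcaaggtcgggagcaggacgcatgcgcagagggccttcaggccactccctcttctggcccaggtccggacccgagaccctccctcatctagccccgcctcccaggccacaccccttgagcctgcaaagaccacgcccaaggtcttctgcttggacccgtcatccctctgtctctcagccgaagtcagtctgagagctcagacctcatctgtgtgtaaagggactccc
Hadhb: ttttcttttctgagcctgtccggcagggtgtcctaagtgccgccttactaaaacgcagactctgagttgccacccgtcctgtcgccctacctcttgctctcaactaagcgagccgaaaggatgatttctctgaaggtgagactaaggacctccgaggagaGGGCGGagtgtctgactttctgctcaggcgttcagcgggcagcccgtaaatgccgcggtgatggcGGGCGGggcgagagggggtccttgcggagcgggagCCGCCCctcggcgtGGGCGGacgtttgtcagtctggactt
Ehhadh: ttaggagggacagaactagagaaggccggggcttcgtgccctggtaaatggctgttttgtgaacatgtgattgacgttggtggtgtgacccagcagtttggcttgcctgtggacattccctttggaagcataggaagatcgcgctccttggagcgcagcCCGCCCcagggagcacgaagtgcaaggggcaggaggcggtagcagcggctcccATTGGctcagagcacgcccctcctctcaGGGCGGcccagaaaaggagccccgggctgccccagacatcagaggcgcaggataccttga
Cpt1a: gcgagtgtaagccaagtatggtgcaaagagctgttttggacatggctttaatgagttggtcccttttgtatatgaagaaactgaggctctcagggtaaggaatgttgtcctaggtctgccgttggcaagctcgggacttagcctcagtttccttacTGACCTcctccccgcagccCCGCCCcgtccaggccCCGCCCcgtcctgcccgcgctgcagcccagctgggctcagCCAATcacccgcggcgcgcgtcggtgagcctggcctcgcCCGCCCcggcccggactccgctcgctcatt
The Hadhb window shares 228 bases with the window of Hadha, which is transcribed in the opposite direction from a start 273 bases away.

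Uptake and activation fell in 3 of 4 genes, with a median log2 fold change of -2.07. Slc27a2, a transporter that also activates very long-chain fatty acids, had normalised read counts of 86.8, 179 and 785 (lowest, median and highest of 7 cPTAA libraries), against 2957, 2253, 1176, 2964 and 2932 in sham libraries 1, 5, 8, 10 and 11, the order used for sham values throughout. Every cPTAA library was below every sham library, and cPTAA 9 was the highest of the 7. The log2 fold change was -3.68 ± 0.45 (adjusted p = 4.46e-05), a 12.8-fold lower level. Acsl1, the main long-chain acyl-CoA synthetase of fat and muscle, was at 5056, 6203 and 10518 (lowest, median, highest) in cPTAA, against 33285, 35223, 15818, 36035 and 23854 in sham. The 7 cPTAA values all lay below the lowest sham value, with a log2 fold change of -2.02 ± 0.25 (adjusted p = 5.65e-05). The smaller fall of Slc27a1, a plasma membrane transporter and synthetase, was -0.99 ± 0.23 on the log2 scale (adjusted p = 0.00525), and its groups overlapped through cPTAA 12 alone, at 3669.

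Fabp3, the heart-type fatty acid binding protein, did not pass (log2 fold change -2.13 ± 0.93, adjusted p = 0.115). Its values were 353, 454, 344, 2730, 2578, 19079 and 187 in cPTAA 2, 3, 4, 6, 7, 9 and 12, against 7794, 2745, 2041, 6070 and 7702 in sham. The 3 cPTAA libraries with high heart muscle markers were the 3 with the most Fabp3, and cPTAA 9 was above every sham library. Without cPTAA 9 the log2 fold change was -2.83 (adjusted p = 0.00557), and without cPTAA 6, 7 and 9 and sham 8 it was -4.14 (adjusted p = 1.72e-05, range over all alternatives 1.72e-05 to 0.766). The libraries left out held the 3 highest cPTAA values and the lowest sham value of Fabp3. A larger fall therefore follows from the choice of libraries. In the fit with the covariate the estimate for Fabp3 was 1.56, of the opposite sign (adjusted p = 0.233). Fabp3 overlaps Zcchc17 on the opposite strand, and whether reads were counted by strand is not stated.

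**Figure D3:**
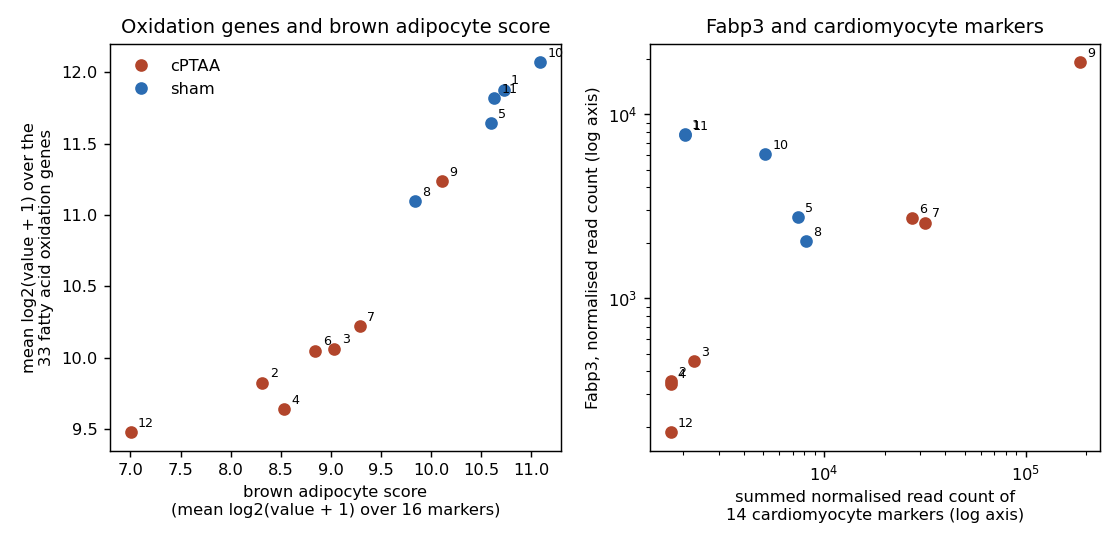
Left, mean log2(value + 1) of the 33 oxidation genes against the brown adipocyte score in each library. Right, Fabp3 against the summed value of 14 heart muscle markers, both on log axes. Points are libraries with their numbers, 7 cPTAA and 5 sham; cPTAA 9 lies beside sham 8 on the left and at the highest Fabp3 value, 19079, on the right.

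The carnitine shuttle fell in 4 of 5 genes, and the exception was Cpt1a. Cpt1a and Cpt1b encode the liver and muscle forms of the outer membrane transferase that commits a fatty acid to the mitochondrion. Cpt1a had values of 1074, 1653 and 2422 (lowest, median, highest) in cPTAA, against 1464, 2039, 1732, 1381 and 1718 in sham. The groups overlapped fully, the log2 fold change was -0.09 ± 0.19 (adjusted p = 0.769), and without cPTAA 6, 7 and 9 and sham 8 it was 0.14. With the covariate it was -0.69 (adjusted p = 0.0605, range over all other alternatives 0.406 to 0.994). Cpt1b was at 0, 4.32 and 8.82 in cPTAA (lowest, median, highest), against 51.7, 30.2, 32.6, 58.6 and 43.1 in sham. All cPTAA libraries were below all sham libraries, at counts of few reads in cPTAA (log2 fold change -3.14 ± 0.54, adjusted p = 0.000654). Cpt1b overlaps Gm44502 on the same strand, and the effect of this overlap on its counts was not tested. With the covariate Cpt1b had a log2 fold change of -2.36 (adjusted p = 0.0842, range over all other alternatives 4.64e-10 to 0.00888).

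The balance of these 2 forms was compared within each library, on values with the pseudocount of 1 added. Because Cpt1b was at 0 to 8.82 in cPTAA, the added 1 weighs on the ratio there, and in cPTAA 6, the lowest, it is the whole numerator since Cpt1b was at 0. The log2 ratio of Cpt1b to Cpt1a was -10.07 to -6.87 in cPTAA and -6.03 to -4.54 in sham, with means of -8.32 ± 1.17 (SD, n = 7) and -5.27 ± 0.62 (SD, n = 5). The difference of -3.05 had a two-sided exact permutation p of 0.00126, the smallest that 792 arrangements allow, and 0.00505 adjusted over 4 ratios. With a pseudocount of 0.1 the difference was -3.71 (exact permutation test, adjusted p = 0.0152, range over all alternatives 0.00866 to 0.0571). Without cPTAA 6, 7 and 9 and sham 8 the difference was -3.31, where the exact test gave an adjusted p of 0.0571 with fewer arrangements. The ratio is not corrected for gene length, so it is compared between groups and not with 0.

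The rest of the shuttle fell together. Slc25a20, the carnitine-acylcarnitine translocase of the inner membrane, was at 686, 1357 and 3859 (lowest, median, highest) in cPTAA, against 6527, 4281, 2761, 6795 and 5864 in sham. Its log2 fold change was -1.92 ± 0.35 (adjusted p = 0.00107), and only cPTAA 9 exceeded the lowest sham library. Cpt2, which returns the acyl group to coenzyme A inside, and Crat, which handles short acyl groups, had log2 fold changes of -1.77 ± 0.31 and -1.59 ± 0.28 (adjusted p = 0.000826 and 0.000919). With the covariate, 0 of the 5 shuttle genes were called.

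**Figure D4:**
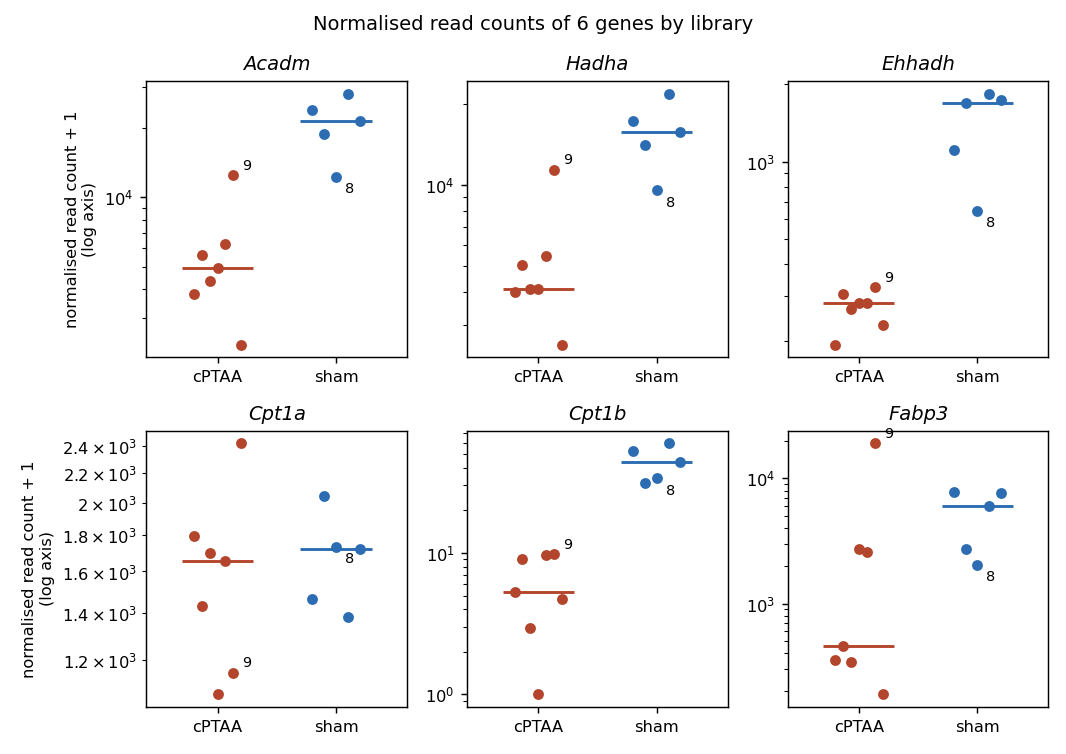
Normalised read count + 1 (log axis) of 6 genes in each of 7 cPTAA libraries (left in each panel) and 5 sham libraries (right), with the group median as a line and cPTAA 9 and sham 8 numbered. Ehhadh and Cpt1b separate the groups, Acadm and Hadha overlap through cPTAA 9 alone, Cpt1a overlaps throughout, and Fabp3 spans 187 to 19079 in cPTAA.

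The 12 genes of the mitochondrial cycle and its electron carriers all fell, between -2.20 and -1.49 on the log2 scale, with adjusted p from 0.000165 to 0.00945. The acyl-CoA dehydrogenases open each round, and each takes a range of chain lengths. Acadvl, for very long chains, was at 1200, 1812 and 4543 (lowest, median, highest) in cPTAA, against 10081, 8155, 5066, 12608 and 9030 in sham. No cPTAA library reached a sham value, although cPTAA 9 came close to sham 8 (log2 fold change -2.01 ± 0.29, adjusted p = 0.000165). Acadvl overlaps Dvl2 on the opposite strand. Acadm, for medium chains, was at 2294, 4917 and 12442 in cPTAA, against 23988, 18711, 12242, 28126 and 21291 in sham (log2 fold change -1.999 ± 0.33, adjusted p = 0.000543). Acadl (long chains) and Acads (short chains) had log2 fold changes of -2.06 ± 0.33 and -1.72 ± 0.29. The log2 ratio of Acadl to Acadvl averaged 0.78 ± 0.31 in cPTAA and 0.83 ± 0.07 in sham (SD, n = 7 and n = 5). That difference of -0.05 did not pass (exact permutation p = 0.721) and turned positive without cPTAA 3 or cPTAA 4, at 0.02 and 0.004.

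The hydratase, dehydrogenase and thiolase steps fell in 5 of 5 genes. Hadh, the medium and short-chain hydroxyacyl-CoA dehydrogenase, was at 1593, 2342 and 6942 (lowest, median, highest) in cPTAA, against 12345, 8983, 6579, 12511 and 9353 in sham. Its groups overlapped only through cPTAA 9 and sham 8 (log2 fold change -1.90 ± 0.30, adjusted p = 0.000387). Acaa2, the thiolase that ends a round, and Echs1, the short-chain hydratase, had log2 fold changes of -2.20 ± 0.40 and -1.49 ± 0.28 (adjusted p = 0.00106 and 0.00133).

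Hadha and Hadhb encode the subunits of the trifunctional protein, which carries out the last steps on long chains, and they are transcribed away from each other, as described with the Hadhb window. Hadha was at 2543, 4091 and 11409 (lowest, median, highest) in cPTAA, against 17364, 14109, 9571, 21941 and 15817 in sham. Hadhb was at 1974, 4043 and 14778 in cPTAA, against 19917, 17222, 11254, 27492 and 19583 in sham. Both fell, with log2 fold changes of -1.68 ± 0.30 and -2.08 ± 0.40 (adjusted p = 0.000986 and 0.00142). The log2 ratio of Hadhb to Hadha was -0.49 to 0.37 in cPTAA and 0.20 to 0.33 in sham. It was below all sham values in cPTAA 2, 3, 4, 7 and 12, inside the sham range in cPTAA 6 and above it in cPTAA 9. The difference of -0.40 had an exact permutation p of 0.0379, and 0.0758 adjusted over 4 ratios. Without cPTAA 9 it was -0.48 (adjusted p = 0.0317, range over all alternatives 0.0317 to 0.162).

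Auxiliary enzymes for unsaturated fatty acids fell in 2 of 3 genes. Eci1, a mitochondrial enoyl-CoA isomerase, was at 811, 1455 and 4282 (lowest, median, highest) in cPTAA, against 7179, 5673, 3705, 7071 and 6561 in sham (log2 fold change -1.93 ± 0.33, adjusted p = 0.000635). Decr1, the dienoyl-CoA reductase, had a log2 fold change of -1.60 ± 0.31 (adjusted p = 0.00149). Eci2, an isomerase found in mitochondria and peroxisomes, was at 769, 875 and 2068 in cPTAA, against 1701, 1492, 1157, 1898 and 1834 in sham. It did not pass (log2 fold change -0.62 ± 0.23, adjusted p = 0.0607), with cPTAA 9 above every sham library. It passed without cPTAA 9 (-0.79, adjusted p = 0.00213) or without sham 8 (-0.74, adjusted p = 0.0372), and with the covariate its estimate was of the opposite sign (0.08, adjusted p = 0.871, range over all other alternatives 4.89e-05 to 0.144).

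The electron carriers that pass the electrons of the dehydrogenases to ubiquinone fell in 3 of 3 genes. Etfa, the larger subunit of the electron transfer flavoprotein, was at 1724, 2781 and 7677 (lowest, median, highest) in cPTAA, against 13742, 9324, 6363, 12588 and 12541 in sham (log2 fold change -1.78 ± 0.31, adjusted p = 0.000673). Etfdh, the membrane dehydrogenase that accepts its electrons, had a log2 fold change of -1.86 ± 0.34 (adjusted p = 0.00106). Etfb, the other subunit, had one of -1.59 ± 0.40 (adjusted p = 0.00945), and cPTAA 9, at 1740, was above every sham library. With the covariate the estimate for Etfb was 0.04. Acot2, a mitochondrial thioesterase that frees fatty acids from coenzyme A, was at 140, 197 and 429 (lowest, median, highest) in cPTAA, against 737, 569, 372, 900 and 555 in sham. It fell by 1.56 on the log2 scale (SE 0.27, adjusted p = 0.000642). Acot1 is a close copy of Acot2 and could share reads with it.

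The peroxisomal genes were less uniform. Of 8 genes 6 fell, with a median log2 fold change of -0.84. The 25 genes of all other steps had a median of -1.86, and 22 of them fell. With the brown adipocyte covariate the medians lay closer together, at -0.45 for the peroxisomal genes and -0.55 for the other 25. Those 25 were grouped by step and not by where the protein is found. Among them are Slc27a1 of the plasma membrane and Eci2, which is found in peroxisomes too. Slc27a2, which activates very long-chain fatty acids and had the largest fall of the 33 genes, is also counted there. The difference between the medians was not tested, and without sham 10 only 3 peroxisomal genes were called. Ehhadh, the peroxisomal bifunctional enzyme for dicarboxylic and other straight chains, had the smallest p of all 33 genes. It was at 193, 280 and 324 (lowest, median, highest) in cPTAA, against 1106, 1686, 645, 1839 and 1736 in sham. All cPTAA libraries, cPTAA 9 included, were below the lowest sham library (log2 fold change -2.30 ± 0.24, adjusted p = 1.31e-05). Its call held with the covariate (-1.71, adjusted p = 0.00789, at most 8.02e-05 over the other alternatives).

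Transporters and the later enzymes gave smaller falls. Abcd3, which brings branched and dicarboxylic acyl groups into the peroxisome, was at 1087, 1556 and 2190 in cPTAA (lowest, median, highest), against 4345, 4037, 2930, 5405 and 4402 in sham (log2 fold change -1.44 ± 0.18, adjusted p = 6.45e-05). Hsd17b4, the bifunctional enzyme for branched chains and bile acid intermediates, had a log2 fold change of -1.02 ± 0.16 (adjusted p = 0.000383). Both kept the groups apart in every library. Abcd2, a transporter of very long-chain acyl groups, had a log2 fold change of -0.65 ± 0.21 (adjusted p = 0.0335), and the call was lost on leaving out cPTAA 4, cPTAA 6, sham 1, sham 5 or sham 10 alone (adjusted p from 0.0514 to 0.098). Acox3, an oxidase of branched chains, was at 512, 722 and 901 in cPTAA, against 849, 768, 688, 901 and 757 in sham. It did not pass (log2 fold change -0.16 ± 0.14, adjusted p = 0.457). Hacl1, a lyase of alpha-oxidation, did not pass either (-0.62 ± 0.29, adjusted p = 0.142), at 17.6 to 44.1 in cPTAA and 29.5 to 53.5 in sham.

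Acaa1a and Acaa1b are close copies that encode peroxisomal thiolases and could share reads. Acaa1a had a log2 fold change of -0.53 ± 0.15 (adjusted p = 0.0216), lost without sham 10 or sham 11 (adjusted p = 0.0608 and 0.0545). Acaa1b was at 76.6, 270 and 1185 in cPTAA (lowest, median, highest), against 622, 734, 555, 1067 and 938 in sham. Its log2 fold change of -1.65 ± 0.53 (adjusted p = 0.0357) did not pass by edgeR (adjusted p = 0.141) or DESeq2 (adjusted p = 0.104), and it was lost on leaving out 1 of cPTAA 3, 4, 7 or 12, or 1 of sham 1, 5, 10 or 11 (adjusted p from 0.0514 to 0.0895). cPTAA 9 was above every sham library. The log2 ratio of Acaa1b to Acaa1a averaged -2.77 ± 1.15 in cPTAA (SD, n = 7) and -1.65 ± 0.30 in sham (SD, n = 5). Its difference of -1.13 did not pass (exact permutation p = 0.0669, adjusted p = 0.0892), and without cPTAA 9 it was -1.42 (adjusted p = 0.0303, range over all alternatives 0.0303 to 0.162).

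Other genes of the pathway showed the same direction. Of 20 further mitochondrial acyl-CoA enzymes 19 fell and 0 rose (median log2 fold change -1.21). Acss1, which activates acetate, fell by 2.39 on the log2 scale, and Acad10, an acyl-CoA dehydrogenase, fell by 1.502 on that scale. Of 20 further peroxisomal enzymes 11 fell and 0 rose (15 without cPTAA 9). Acad11, an acyl-CoA dehydrogenase, was at 487, 712 and 1463 (lowest, median, highest) in cPTAA, against 2538, 2565, 1464, 3243 and 2775 in sham. Its groups did not overlap, although cPTAA 9 lay just under sham 8 (log2 fold change -1.72 ± 0.24, adjusted p = 0.000134). Peroxisome biogenesis fell in 12 of 15 genes and rose in 0 (7 fell without sham 1 or sham 10), with the smallest p for the import receptor Pex5, at -0.89 ± 0.12 (adjusted p = 0.000126), and a larger fall for Pex11a, at -1.30 ± 0.20.

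Genes that supply fatty acids were mixed. Of 15 further uptake and activation genes 6 fell and 1 rose. Cd36, the fatty acid translocase, fell by 1.49 on the log2 scale (adjusted p = 0.000249). The rise was Fabp5, the epidermal binding protein, at 698, 1493 and 1836 in cPTAA (lowest, median, highest), against 628, 693, 560, 901 and 718 in sham (log2 fold change 0.89 ± 0.22, adjusted p = 0.00962), and 2 genes rose without cPTAA 9 or sham 8. Of 8 tested thioesterases 3 fell and 1 rose, the rise being Acot7 (0.82 ± 0.20, adjusted p = 0.00774). Lipolysis fell in 7 of 8 genes, with the smallest p for Plin1, which coats the lipid droplet, at -1.56 ± 0.19 (adjusted p = 4.3e-05).

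Among 19 regulators of the pathway 12 fell and 0 rose, with a median log2 fold change of -1.39. Ppara, the nuclear receptor that activates many oxidation genes, was at 57.2, 121 and 182 (lowest, median, highest) in cPTAA, against 1223, 1277, 577, 1354 and 868 in sham. All cPTAA libraries, cPTAA 9 included, were below the lowest sham library (log2 fold change -3.31 ± 0.30, adjusted p = 4.95e-06). Ppargc1b, a coactivator, and Pdk4, a kinase that limits glucose oxidation, had log2 fold changes of -2.85 ± 0.30 and -2.28 ± 0.29. With the covariate 5 regulators were called lower, among them these 3, at -2.66, -2.50 and -2.05 (adjusted p = 0.0035, 0.00777 and 0.0175).

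The mitochondrial steps downstream moved in the same direction. The citric acid cycle fell in 23 of 26 genes and rose in 0, with a median log2 fold change of -1.38, and Pdha1, a subunit of pyruvate dehydrogenase, was at -1.37 ± 0.23 (adjusted p = 0.000498). The nuclear genes of the respiratory chain fell in 38 of 48 and rose in 0, with a median of -1.20, and 47 fell without cPTAA 9, 22 without sham 1 or sham 11, 21 without sham 10 and 23 by edgeR. Ketone body and branched-chain use fell in 9 of 11 genes, with the smallest p for Mmut, which processes propionyl units, at -1.23 ± 0.14 (adjusted p = 3.48e-05). Reads of mitochondrially encoded genes made up 3.23% to 15.2% of each cPTAA library, with cPTAA 9 the highest, and 10.8% to 16.9% of each sham library. With the covariate 0 citric acid cycle genes were called in either direction. Of the respiratory chain 0 genes were then called lower and 1 higher (Atp5g1, a subunit of the ATP synthase), and the median of that list was 0.20. Atp5g1 was at 1825, 1169 and 5957 in cPTAA 6, 7 and 9, the cPTAA libraries with high heart muscle markers. It was at 502 to 733 in the other cPTAA libraries and at 479 to 646 in sham. In the lists of pathway, downstream and adipocyte genes with 0 rises by limma, 0 genes were higher by edgeR, by DESeq2 or at an unadjusted p under 0.05, with these exceptions. In the respiratory chain 1 gene was higher by each of the 3 measures (Atp5g1 by edgeR), and 1 brown adipocyte marker was higher by DESeq2.

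Markers of other cells in the wall moved as well. Macrophage markers rose in 9 of 10 cases (summed value 34440 to 63547 in cPTAA and 6457 to 25396 in sham), B and T cell markers in 8 of 8 and fibroblast markers in 5 of 8. Smooth muscle markers fell in 5 of 10 cases and endothelial markers in 3 of 8, with 3 smooth muscle markers called lower by edgeR, 2 without sham 5, and 3 on leaving out cPTAA 3, 9 or 12 or sham 8, 10 or 11. Of 7 tested skeletal muscle markers 0 passed by limma (0 at an unadjusted p under 0.05), 0 by edgeR and 2 by DESeq2. The part of these cell types in the fall of the oxidation genes was not tested.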

How the data were processed

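Groups came from the sample titles. Per the labels' protocols, oligo-dT beads captured the messenger RNA and random hexamers primed it. HISAT2 2.0.5, featureCounts 1.5.0-p3 and the build GRCm39 are named in the submitters' processing notes. The strand setting, scaling and batches are not stated in the sources used here. Each gene's deposited value is a signal, called normalised read counts here: 100% were whole numbers of reads (within 0.02) divided by 1 factor per library, and 1 read was worth 0.863 to 1.16 units. No animal is named, so the p-values reflect spread between these samples, which may be technical. No pair of libraries in a group agreed within sampling noise.

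The 33 genes and all lists were chosen with earlier results of these data known. Genes with values of at least 1 in 5 or more libraries (21415) were fitted with limma 3.58.1 in R 4.3.3, on log2(value + 1) with a trended variance, two-sided, Benjamini-Hochberg adjusted, at 0.05. This scale understates changes of low genes. Ratios used exact permutation tests over samples. Values by library are given for the smallest p of each step and for genes that did not follow their step, and up to 3 genes of smallest p were taken from other lists, of which some are not reported here. Alternatives were edgeR 4.0.16 and DESeq2 1.42.0 on recovered reads, other scalings, filters and pseudocounts, sample weights, a brown adipocyte covariate, and leaving out libraries. Older symbols were matched through RefSeq synonyms, and overlapping genes were read from GENCODE M21. Tested on data simulated with the group sizes and depths of this comparison, 39.5% of 2-fold changes (23004 genes tested) and 99.5% of 4-fold changes (22884 genes tested) were recovered. Of the calls, 2.47% and 4.33% were false. Each simulation changed 200 genes, fewer than were called in the real data. All genes had the same dispersion and no library stood apart, so the rates in the real data can differ.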

Additional observations from a re-analysis of the deposited data

Results flagged for a closer look

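Within groups, 66 sets of values were screened for a sample far from the others, and 24 stood out. The rule is meant to flag about 1 in 20 sets by chance. Whether that rate holds for these values, which were not on a log scale, was not tested. The sets are the oxidation genes in the same libraries, and these genes moved together. In 23 of the 24 flagged sets cPTAA 9 was far above the other 6 cPTAA libraries. Those 23 flags repeat what cPTAA 9 did and cannot be counted as separate events against that rate.

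Among uptake and shuttle genes these were Slc27a2 (785 in cPTAA 9, and 86.8 to 227 in the others), Fabp3 (19079, and 187 to 2730), Slc25a20 (3859, and 686 to 1432), Cpt2 (3463, and 787 to 1608) and Crat (7232, and 1778 to 3130). Of the mitochondrial cycle they were Acadvl at 4543, Acadl at 10115, Acadm at 12442, Acads at 2232, Hadha at 11409, Hadhb at 14778, Hadh at 6942, Echs1 at 5616 and Acaa2 at 13661. The isomerases and reductase Eci1, Eci2 and Decr1 were at 4282, 2068 and 5182, the electron carriers Etfa, Etfb and Etfdh at 7677, 1740 and 4666, and Acot2 at 429. Among peroxisomal genes Hsd17b4 was at 2602 and Acaa1b at 1185 in cPTAA 9. The other flagged value was Crat in sham 8, at 5467, where the other sham libraries were at 9752 to 10900.2. The summed values of the heart muscle and of the brown adipocyte markers were also highest of the group in cPTAA 9, though not each single marker, and their part in these values was not tested.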

How the results depend on the processing

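Over 22 alternative settings, the count of oxidation genes called lower was 25 to 31, except under the brown adipocyte covariate (6 genes). In that fit 786 genes of the whole table were called lower and 1201 higher, against 2374 and 2754 without it, and Fabp3, Eci2, Etfb and Acaa1b turned to 1.56, 0.0816, 0.0393 and 0.102 on the log2 scale. Cpt1a turned to 0.14 without cPTAA 6, 7 and 9 and sham 8 together. Of the 28 calls, 25 held in every setting but the covariate (adjusted p up to 0.0418), and the exceptions were Abcd2, Acaa1a and Acaa1b. The edgeR test called 2622 genes higher and 2261 lower of 15839 tested, and DESeq2 3276 and 2649.

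Oxidation genes with no overlap between groups numbered 7 to 26 when 1 library was left out, and 28 without those 4 together. The share over all tested genes was not computed for these smaller groups. The Cpt1b to Cpt1a ratio differed by -3.31 without those 4 (-3.29 to -2.76 with 1 library left out), where the exact test has fewer arrangements. With 1 library left out, the differences were -0.48 to -0.34 for Hadhb to Hadha, -0.11 to 0.0209 for Acadl to Acadvl (0.00442 without cPTAA 4), and -1.42 to -0.88 for Acaa1b to Acaa1a. No paired analysis was possible because the groups share no replicate numbers. At this depth Cpt1b and Hacl1 rest on few reads, and leaving out a library cannot show how other animals would vary.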
